A study of Mus musculus with 28 samples.

Results

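The genes described are 8 transcription factor genes of the trophectoderm, *Tfap2c*, *Tfap2a*, *Tead4*, *Cdx2*, *Eomes*, *Gata3*, *Elf3*, and *Hand1*. They were taken by symbol from a fixed list and joined by gene identifier across the deposited tables. All 8 had a value, among 15384 genes with RNA-seq values per library. The study examined FACT, the histone chaperone made of SSRP1 and SUPT16, in mouse ES cells (mESCs), and asked how its depletion alters transcription. The cells were of the E14 line, a pluripotent line kept in serum with leukaemia inhibitory factor. Both RNA-seq groups were transfected with lentiviral vectors, either a scramble control (Control, 4 libraries) or a mixture of *Ssrp1* shRNAs 1 and 2 (Ssrp1-KD, 4 libraries). Puromycin at 2 μg/ml was given to both groups for 24 h, starting 48 h after transfection, so that controls carried a vector and the drug as well. All values come from 1 line and 1 mixture of shRNAs. The same line gave 2 libraries of chromatin-associated RNA and 1 deposited peak list for each FACT subunit, called on 2 ChIP replicates together.

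The trophectoderm is the outer epithelium of the blastocyst and the source of the trophoblast of the placenta. In the embryo, TEAD4 acts in outer cells together with YAP1, the co-activator that Hippo signalling holds out of the nucleus, and *Cdx2* and *Gata3* are activated there. CDX2, EOMES, and TFAP2C sustain trophoblast stem cells, and HAND1 acts in trophoblast giant cells. ES cells derive from the inner cell mass, where POU5F1 opposes *Cdx2*, and they express these genes weakly or for other purposes. In bulk RNA, fewer cells of a type and less RNA per cell cannot be told apart.

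Promoter sequences are shown for the members whose promoter held the letters of a motif read by the AP-2, TEAD, or GATA family. They are the 250 bases before the annotated start, from RefSeq on GRCm38.p6, written 5′ to 3′ along the gene's strand. Promoters were listed for 5 of the 8 genes (*Tfap2a*, *Cdx2*, *Eomes*, *Gata3*, and *Elf3*). Capitals mark matches on either strand. The letters searched for AP-2 factors were GCCNNNGGC. For TEAD factors the word GGAATG was used. The family of zinc-finger factors to which *Gata3* belongs was given AGATAA. Of 32851 promoters of that length, 13.7% held the AP-2 letters, 12.6% the TEAD letters, and 9.99% the GATA letters. The first sequence lies at chr5:147307250-147307499 on the minus strand, the second at chr2:9878601-9878850 on the minus strand, and the last at chr1:135258473-135258722 on the minus strand.
Cdx2 promoter: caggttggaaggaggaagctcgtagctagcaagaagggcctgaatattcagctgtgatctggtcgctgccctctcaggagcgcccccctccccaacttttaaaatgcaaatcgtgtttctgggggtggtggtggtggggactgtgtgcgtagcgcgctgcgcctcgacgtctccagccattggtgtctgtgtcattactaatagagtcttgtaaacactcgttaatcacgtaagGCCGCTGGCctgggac
Gata3 promoter: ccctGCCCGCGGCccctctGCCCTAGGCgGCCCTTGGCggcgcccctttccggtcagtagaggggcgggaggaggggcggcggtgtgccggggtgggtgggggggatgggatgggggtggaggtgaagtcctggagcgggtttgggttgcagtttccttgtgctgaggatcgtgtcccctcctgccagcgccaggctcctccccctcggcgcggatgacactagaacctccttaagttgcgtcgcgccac
Elf3 promoter: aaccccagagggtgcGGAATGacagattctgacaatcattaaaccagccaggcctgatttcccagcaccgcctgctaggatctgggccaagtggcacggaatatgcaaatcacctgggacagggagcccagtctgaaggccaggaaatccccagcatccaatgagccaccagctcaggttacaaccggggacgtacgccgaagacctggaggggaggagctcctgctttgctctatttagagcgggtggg

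The *Gata3* promoter held 3 matches to the AP-2 letters and the *Cdx2* promoter 1, while *Elf3* held 1 match to the TEAD letters. None of the 3 motifs was found in the promoter windows of *Tfap2a* and *Eomes*. A match is a description of letters and not of binding. The *Gata3* window was 70.0% G and C with 19 CpG dinucleotides, against medians of 52.4% and 6 over all promoters.

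The targeted gene was checked first. The *Ssrp1* value was 223 to 261 in the control libraries and 24.1 to 28.9 in the KD libraries. The values used are the deposited ones labelled as library-size normalised, and the reads behind them were recovered from their steps. The methods name TMM normalisation, and TMM scaling of the recovered reads gave nearly the same log2 fold changes (*Tfap2c* -0.2919, beside -0.2902). The deposited values are called library-size values below. Scaling to the plain total of reads was not tried. The deposited values add up to more in every KD library than in any control library. Scaling to the plain total would therefore lower the log2 fold changes. Reads on the tested genes were 4602278 to 6680919 per control library and 9433193 to 19856032 per KD library, so the controls measure low genes less precisely. Differences were tested with limma on log2(value + 0.5), and a gene was called where the log2 fold change exceeded 1 in size and the Benjamini-Hochberg adjusted p lay below 0.01. On this scale the change of a low gene is understated.

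The 8 genes did not move together in Ssrp1-KD cells. *Tfap2a*, *Hand1*, *Cdx2*, and *Gata3* fell, *Elf3* was 1.88-fold higher without reaching the fold threshold, and *Tead4* did not pass the test. *Tfap2c* and *Eomes* were lower by less than the threshold. Called lower were 4 of the 8 members, beside 20.6% of all genes, and none was called higher, beside 8.07% of all genes. With the adjusted p alone, 6 were lower and 1 higher, beside 37.3% and 35.4% of all genes. In 6 members all KD libraries lay below all control libraries, and in 1 all lay above, beside 37.5% and 35.8% of all genes. Non-overlapping groups were thus common in these data. The median log2 fold change was -0.87 over the members and -0.03 over all genes.

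Low genes were lower in KD as a class. When all genes were ranked by mean log2 value and divided into 10 classes, the median log2 fold change ran from -1.09 and -1.21 in the lowest 2 classes to 0.59 in the highest. The members called lower all lay in the lowest 3 classes, where 54.8%, 57.9%, and 41.8% of genes were called lower. *Elf3* and *Tfap2c* lay in the seventh class, *Tead4* in the sixth, and *Eomes* in the fourth. The part of level in the members' differences was not tested. The values of each member are given beside its class, and for other called genes the number of the class, from 1 for the lowest to 10, follows the log2 fold change.

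**Figure D1:**
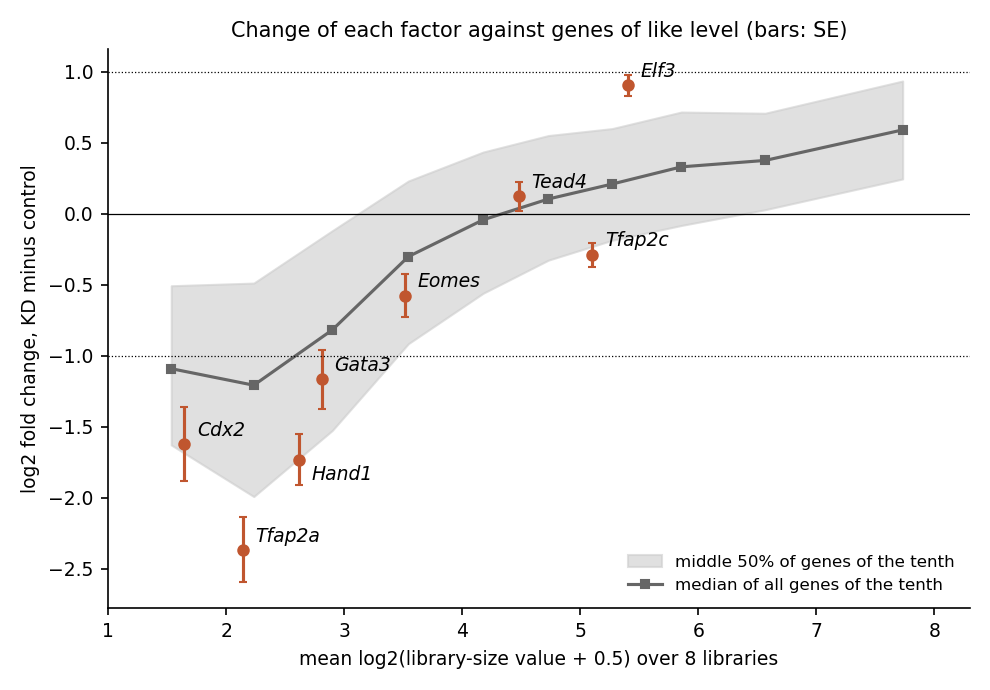
Log2 fold change (KD minus control, bars are standard errors) of the 8 genes against their mean log2(library-size value + 0.5). The grey line and band show the median and the middle 50% of genes in each of 10 classes of level, placed at the median level of the class, and dotted lines mark the fold threshold. *Tfap2a* at -2.37 sits below the band, *Hand1* at -1.73 near its lower edge, and *Elf3* at 0.90 above it.

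*Tfap2a* encodes AP-2α, a factor of trophoblast, neural crest, and surface ectoderm. In replicate order, the control libraries read 5.58, 13.4, 12.4, and 8.75 (library-size values) and the KD libraries 1.36, 1.47, 1.62, and 1.33. The groups did not overlap, and the controls spread 2.41-fold while the KD libraries lay close together. The mean fell 6.95-fold, from 10.0 ± 3.58 to 1.44 ± 0.130 (SD, n = 4 each). The limma fit gave a log2 fold change of -2.37 with a standard error of 0.229 and an adjusted p of 3.78e-10. Only 15.8% of genes in its class of level had a lower log2 fold change, the class median being -1.21. *Tfap2a* was also the member called lower under each of the 21 alternatives tried, with log2 fold changes of -2.76 to -1.42 and adjusted p of 1.28e-21 to 2.8e-05. The KD values rest on 11 to 25 reads per library.

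*Hand1* encodes a bHLH factor of trophoblast giant cells and of extraembryonic and cardiac mesoderm. Control libraries gave 13.3, 9.29, 12.6, and 8.34, and KD libraries 2.84, 2.81, 3.30, and 2.55. The lowest control exceeded the highest KD library by far. The fall was 3.78-fold (limma log2 fold change -1.73 ± 0.182 SE, adjusted p = 1.74e-09), and 21.0% of genes in its class had a lower log2 fold change. The class median was -0.82. The call was lost with quantile normalisation (-0.83) and with spike-in scaling (-0.79).

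*Cdx2* encodes the caudal-type homeodomain factor that specifies trophectoderm. It was the least abundant member in control cells, at 4.63, 5.16, 5.38, and 4.79, and read 2.10, 1.29, 0.518, and 1.62 in the KD libraries. Controls agreed closely (coefficient of variation 6.90%), whereas KD libraries spread 4.06-fold on only 8 to 28 reads each. The fall was 3.61-fold (limma log2 fold change -1.62 ± 0.259 SE, adjusted p = 2.57e-06). In its class 25.3% of genes had a lower log2 fold change and the median was -1.09. It was not called with quantile normalisation (-0.50, adjusted p = 0.118) or with spike-in scaling (-0.80, adjusted p = 0.0186).

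*Gata3* encodes a zinc-finger factor that acts beside CDX2 in trophectoderm and in many other lineages. Its values were 7.62, 16.01, 7.71, and 10.53 in control libraries and 4.94, 4.28, 2.91, and 4.87 in KD libraries. Control replicate 2 stood highest, and its value alone exceeded the next by more than the gap between the groups. The fall was 2.46-fold (limma log2 fold change -1.17 ± 0.205 SE, adjusted p = 1.02e-05). Without control replicate 2 the log2 fold change was -0.95 and the gene was no longer called, nor was it with a pseudocount of 2 (-0.96), quantile normalisation (-0.35), or spike-in scaling (-0.22). The class median was -0.82, and 35.2% of genes in the class were lower still.

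*Elf3*, an epithelial factor of the Ets family, moved the other way. Its values were 29.0, 29.4, 29.2, and 34.9 in control libraries and 58.7, 58.6, 56.1, and 56.8 in KD libraries. The groups were far apart and each was narrow, with coefficients of variation of 9.25% and 2.28%. The mean was 30.6 ± 2.83 in control and 57.6 ± 1.31 in KD (SD, n = 4 each), a 1.88-fold difference. Its log2 fold change of 0.90 (standard error 0.0758) stayed under the fold threshold, although its adjusted p of 2.21e-11 was low. Genes of its class had a median of 0.21, and 12.0% of them had a higher log2 fold change. It was called only with the deposited spike-in scaling (1.91) and where no fold threshold was set.

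*Tfap2c* encodes AP-2γ, a factor of trophoblast stem cells and of germ cells that is also present in naive pluripotent cells. Control values of 41.4, 34.1, 34.3, and 40.6 stood against KD values of 29.8, 30.7, 30.6, and 31.0. All KD libraries were below all control libraries, by a small margin. The mean was 1.23-fold lower in KD (limma log2 fold change -0.29 ± 0.0831 SE, adjusted p = 0.00251), under the fold threshold, and the sign turned with spike-in scaling (0.72). Among genes of its class, whose median was 0.21, 20.0% had a lower log2 fold change.

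*Eomes* encodes a T-box factor of trophoblast stem cells and of early mesendoderm. Control values were 11.03, 17.04, 13.99, and 12.31 and KD values 10.75, 9.79, 8.09, and 7.07. The lowest control and the highest KD library almost touched. The mean was 1.52-fold lower in KD (limma log2 fold change -0.58 ± 0.150 SE, adjusted p = 0.00103), below the fold threshold, and the sign turned with spike-in scaling (0.40, adjusted p = 0.204). With quantile normalisation the log2 fold change was -0.12 with an adjusted p of 0.496. The class median was -0.30.

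*Tead4* encodes the DNA-binding partner of YAP1 that stands at the head of the trophectoderm programme. Its control values of 20.7, 17.6, 24.6, and 21.3 overlapped its KD values of 23.4, 21.5, 22.4, and 24.0. In limma it differed by a log2 fold change of 0.12 ± 0.102 SE (adjusted p = 0.270), close to the class median of 0.10. With spike-in scaling it was called higher at 1.12.

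**Figure D2:**
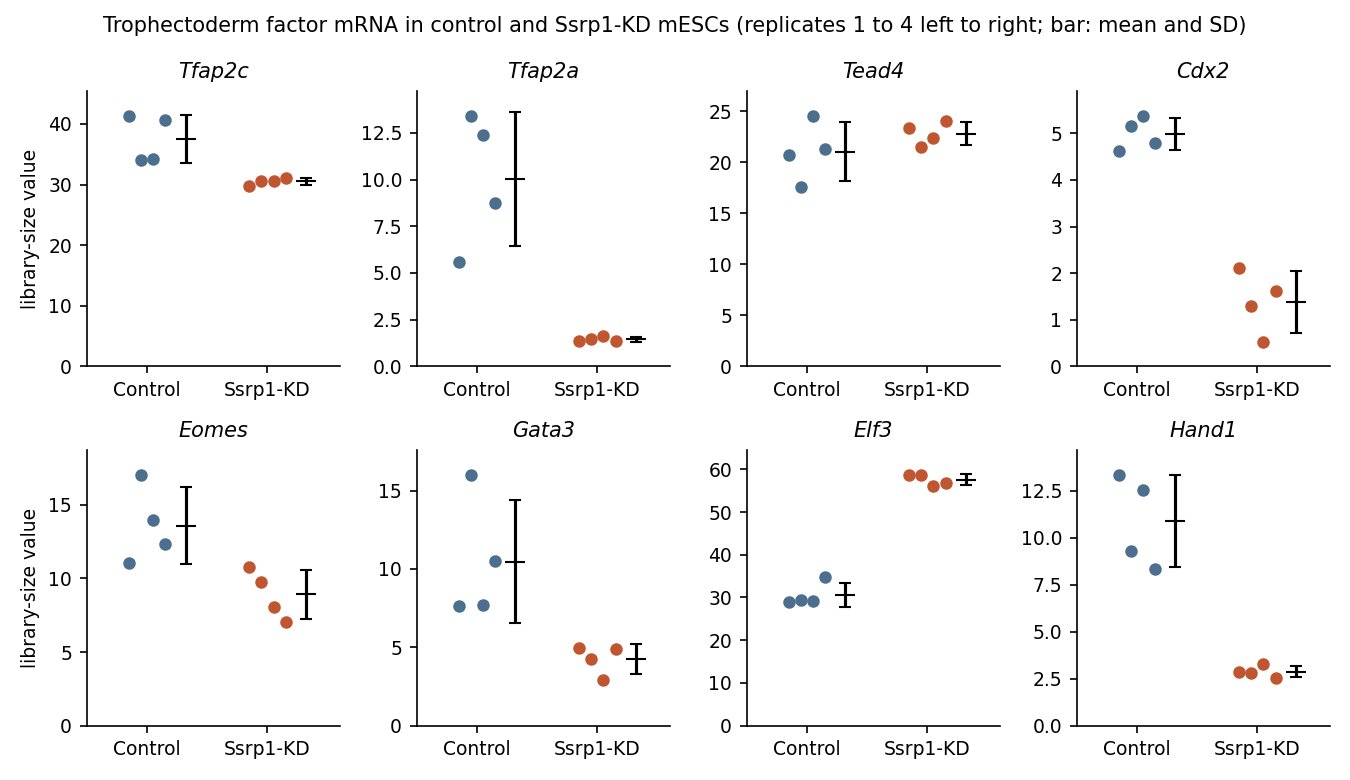
Library-size value of each gene in control and Ssrp1-KD mESCs, with replicates 1 to 4 from left to right and the mean and SD as a black bar at the right of each group (n = 4). Each panel has its own axis from 0. *Tfap2a*, *Cdx2*, *Gata3*, and *Hand1* fell, the KD libraries of *Elf3* lie between 56.1 and 58.7 above all controls, and those of *Tead4* overlap the controls.

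The sign of *Tfap2c* and *Eomes* depended on the scaling. The deposited spike-in scaling raised the median log2 fold change of all genes to 0.95, from -0.03 with library size. Under it 3 members were called, *Tfap2a* lower and *Tead4* and *Elf3* higher. Of all 15384 genes, 1082 were called lower and 7394 higher with that scaling. Of all genes called, 28.2% were higher in KD with library-size scaling, 47.8% with quantile normalisation, and 87.2% with spike-in scaling. Relative to that median of all genes, spike-in scaling put *Tfap2a* at -2.43, *Cdx2* at -1.75, *Hand1* at -1.75, *Gata3* at -1.17, *Eomes* at -0.55, *Tfap2c* at -0.23, *Tead4* at 0.17, and *Elf3* at 0.96. Quantile normalisation, which gives all libraries 1 distribution, left only *Tfap2a* called. With it, 1656 of the 15384 genes were called lower and 1518 higher.

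**Figure D3:**
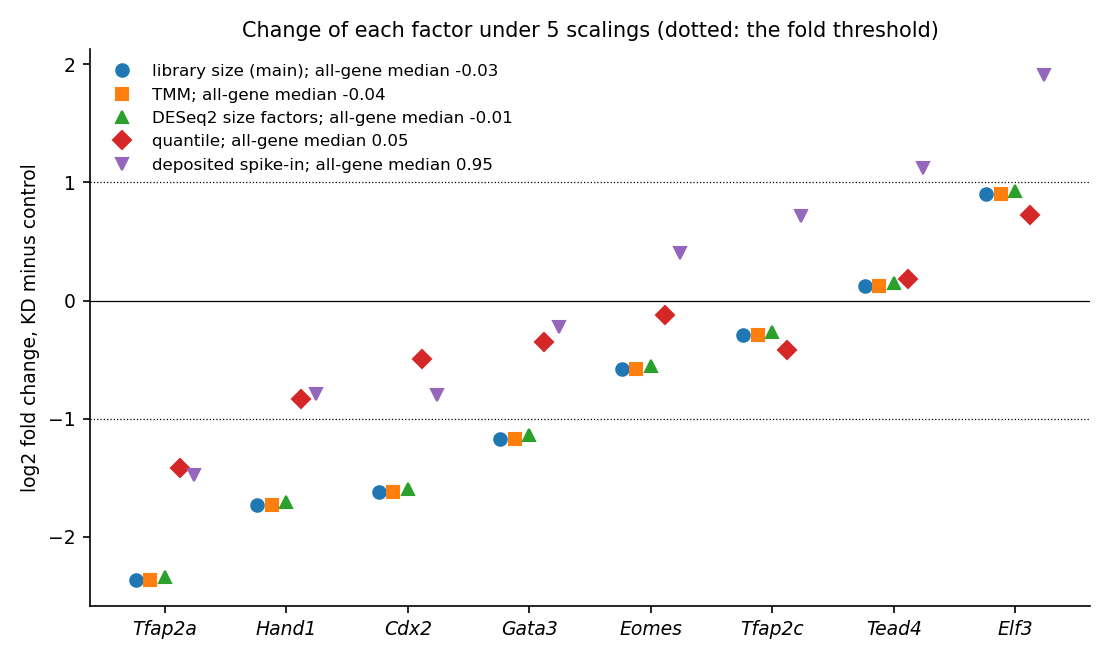
Log2 fold change (KD minus control) of each gene under 5 scalings, with the median over all 15384 genes for each scaling in the legend and the fold threshold dotted. *Tfap2c* and *Eomes* are below 0 under 4 scalings and above 0 with the deposited spike-in scaling, where the median of all genes is 0.95.

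Levels between genes were compared as library-size values per kilobase of summed exon. In control cells the order was *Elf3* (15.3 ± 1.42), *Tfap2c* (12.2 ± 1.29), *Tead4* (6.84 ± 0.936), *Hand1* (5.73 ± 1.28), *Eomes* (3.66 ± 0.700), *Gata3* (3.26 ± 1.22), *Tfap2a* (3.07 ± 1.10), and *Cdx2* (2.33 ± 0.160; SD, n = 4). *Elf3* and *Tfap2c* were each separated from the next in order without overlap, and from *Tead4* downwards every gene overlapped its neighbour. The median of all genes was 8.05 per kilobase, so that only *Elf3* and *Tfap2c* lay above it. In KD cells the order was *Elf3* (28.8 ± 0.657), *Tfap2c* (9.95 ± 0.171), *Tead4* (7.42 ± 0.354), *Eomes* (2.403 ± 0.445), *Hand1* (1.52 ± 0.164), *Gata3* (1.32 ± 0.292), *Cdx2* (0.645 ± 0.310), and *Tfap2a* (0.442 ± 0.0397). *Hand1* passed below *Eomes* and *Tfap2a* became the lowest, though *Hand1* with *Gata3*, *Gata3* with *Cdx2*, and *Cdx2* with *Tfap2a* still overlapped.

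The summed level of the 8 genes per kilobase was 52.5 ± 1.09 in control and 52.5 ± 1.29 in KD libraries (SD, n = 4 each), with ranges of 50.9 to 53.5 and 50.9 to 54.0. Such sums, those of gene families below included, depend on the scaling. They were not computed with spike-in scaling, under which the median log2 fold change of all genes was 0.95. Nor were they computed with scaling to the plain total of reads, which would lower KD against control. The make-up of the sum of the 8 genes differed. A share within 1 library is the same under any scaling that multiplies all values of a library by 1 factor, which quantile normalisation does not do. *Elf3* supplied 27.7 to 32.6% of the sum in control libraries and 54.4 to 55.5% in KD libraries. *Hand1* went from 8.22 to 13.8% down to 2.57 to 3.42%, and *Tfap2a* from 3.35 to 7.82% down to 0.771 to 0.974%. *Tfap2c* supplied 21.1 to 26.5% and then 18.0 to 19.6%, while *Tead4*, at 10.9 to 15.1% and 13.2 to 14.9%, overlapped. Within a library the *Elf3* to *Tfap2c* ratio per kilobase was 1.08 to 1.33 in controls and 2.81 to 3.02 in KD. These shares and ratios were computed after the values had been seen and carry no test.

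**Figure D4:**
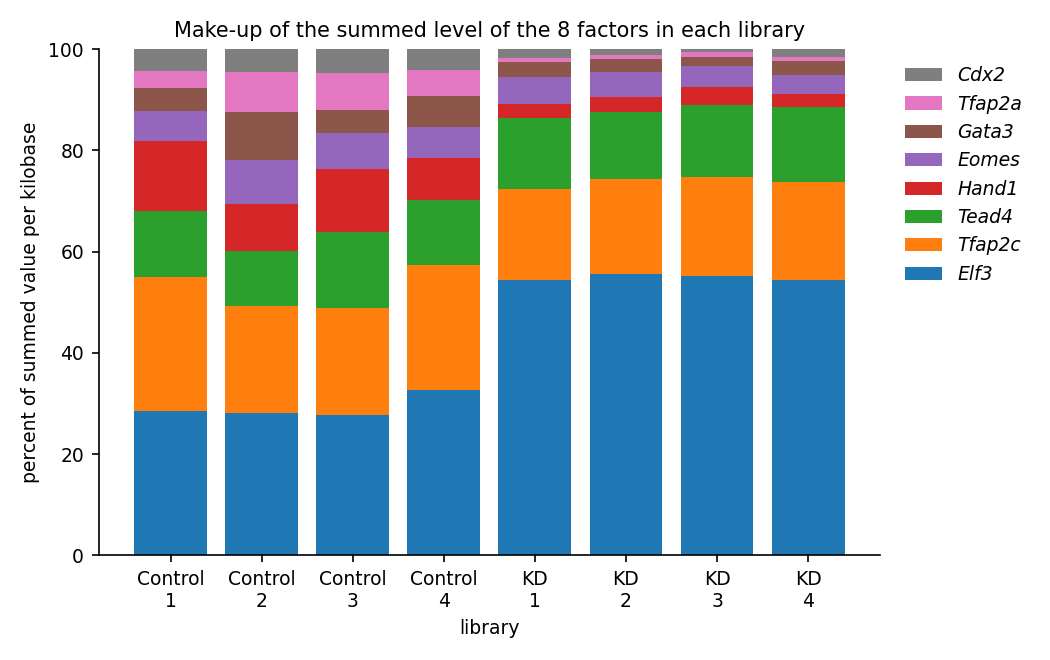
Share of each gene in the summed library-size value per kilobase of the 8 genes, in percent, as stacked bars for each of the 8 libraries. *Elf3* makes up 27.7 to 32.6% in control libraries and 54.4 to 55.5% in KD libraries, while the shares of *Hand1*, *Gata3*, *Tfap2a*, and *Cdx2* shrink.

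Close relatives of the members were examined next, since members of a family read similar DNA letters. Of 21 listed paralogues 14 had a value, 5 were called lower and 1 higher (35.7% and 7.14%, beside 20.6% and 8.07% of all genes), and the median log2 fold change was -0.87. Of the 5 called lower, 3 lay in classes 1 to 3, where lower calls were common among all genes. The 7 without a value included *Elf5*, a defining gene of trophoblast stem cells, and *Hand2*. Among AP-2 genes, *Tfap2e* fell with *Tfap2a* (log2 fold change -2.01, class 1), so that *Tfap2c* made up more of the family per kilobase, going from 66.3 ± 9.83% to 90.5 ± 0.904% while the family sum went from 18.57 to 10.99 per kilobase. Among TEAD genes, *Tead2* rose (1.38, class 9), *Tead1* fell (-1.14, class 9), and *Tead3* was lower without a call (-0.94). *Tead4* thereby went from 13.5 ± 2.24% to 8.75 ± 0.482% of TEAD level, and *Tead2* from 52.3% to 81.7%. The GATA sum went from 20.6 to 9.13 per kilobase. *Gata6*, a primitive endoderm factor, fell (-1.89, class 4), *Gata4* fell (-1.50, class 2), and *Gata3* held 15.6 ± 4.39% of the sum in control and 14.4 ± 2.71% in KD, which overlapped. *Elf3* went from 31.99 ± 1.83% to 44.3 ± 1.05% of the Elf genes, beside *Elf2* (log2 fold change 0.58) and *Elf1* (-0.86), neither of them called. *Cdx2* held 44.3 ± 5.60% of the summed *Cdx1* and *Cdx2* level in control and 22.3 ± 8.47% in KD. *Tbx21*, a relative of *Eomes*, fell (-1.41, class 1).

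Hippo signalling, which restrains YAP1 and so TEAD4, was examined through 19 measured genes, of which 5 were called lower (26.3%, near the 20.6% of all genes), none was called higher, and the median log2 fold change was -0.38. The counts do not set the pathway apart from other genes. *Vgll3*, a TEAD cofactor, fell by 1.88 on the log2 scale (class 4), *Ankrd1*, a known YAP1 target, by 1.62 (class 2), *Amotl2* by 1.28 (class 10), and *Amotl1* by 1.15 (class 9). The angiomotins tether YAP1 outside the nucleus. *Lats2*, a kinase of YAP1, fell by 1.08 (class 6). For *Yap1* itself the log2 fold change was 0.11, with a limma adjusted p of 0.0948. The classical YAP1 targets did not share a direction, with *Cyr61* at -0.73 and *Ctgf* at 0.28, neither of them called. Without the fold threshold 11 of the 19 Hippo genes were lower and 5 higher, beside 37.3% and 35.4% of all genes.

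Effector genes of trophectoderm and trophoblast were measured for 22 of 23 listed, with 3 called lower, 2 called higher, and a median of -0.36. These shares, 13.6% and 9.09%, were below or near the 20.6% and 8.07% of all genes. *Gcm1*, the factor of labyrinth trophoblast, fell from 11.3 ± 0.287 to 1.17 ± 0.306 (SD, n = 4 each; limma log2 fold change -2.85, adjusted p = 5.71e-13, class 2). *Dsp*, desmoplakin of the desmosome, fell by 1.67 on the log2 scale (class 9). *Aqp3*, a water channel of the blastocyst, rose (1.39, class 10), and *Cldn7*, a tight junction claudin, rose (1.04, class 3). The keratins *Krt8* and *Krt18* were abundant in both groups and not called (-0.36 and -0.69).

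Pluripotency genes moved opposite to the members called lower. Of 12 measured, 7 were called higher, beside 8.07% of all genes, and none lower, and the median difference of the 12 was 1.12 on the log2 scale. The highest class held 5 of these 7 genes, and of all genes in it 20.6% were called higher and the median was 0.59. *Tdgf1*, a Nodal co-receptor, rose by 2.402 (class 10), *Prdm14* by 2.17 (class 6), *Dppa3* by 1.95 (class 5), and *Sox2* by 1.28 (class 10) on the log2 scale. Primitive endoderm genes had 4 of 11 called lower and a median of -0.96, led by *Sox7* (-2.20, class 1) and *Gata6* (class 4), and 3 of the 4 lay in classes 1 to 3. Of the 4, *Gata4* and *Gata6* were already counted among the paralogues called lower above. Only 4 of the 12 listed genes of primitive streak and mesoderm had a value. Of these 3 fell, led by *Kdr* (-2.67, class 2), all of them in classes 1 to 3. In those classes 54.8%, 57.9%, and 41.8% of all genes were called lower, so these counts on low genes are read against that background and not against 20.6%. Among 9 genes of surface ectoderm and epidermis 3 fell (33.3%, beside 20.6% of all genes), *Krt15* (-4.39, class 3), *Krt14* (-3.68, class 2), and *Perp* (-1.78, class 9), and *Epcam* rose (1.19, class 8).

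The summed values of the marker lists did not overlap between the groups. For 6 pluripotent markers it was 938 to 1003 in controls and 2099 to 2143 in KD. For 6 of 7 trophectoderm markers it was 988 to 1334 and 768 to 815, mostly from keratins. The trophectoderm markers include the members *Cdx2*, *Eomes*, and *Gata3*, so their sum is not separate from the genes described. For 6 primitive endoderm markers it was 65.9 to 95.6 and 27.31 to 32.004, for 3 of 6 streak and mesoderm markers 12.9 to 24.4 and 2.84 to 4.82, and for 4 of 6 ectoderm markers 110 to 129 and 48.0 to 52.8. *Elf5*, *T*, *Mixl1*, *Evx1*, *Trp63*, and *Krt5* had no value. The part of other cell types in the members' differences was not tested.

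For each member the 2 genes with the most similar pattern were found by the root-mean-square difference of log2 values, each gene centred on its own mean, over the 8 libraries. They were *Acad11* and *Whsc1* for *Tfap2c* (0.0334 and 0.0350), *Pdzd7* and *Rfx4* for *Tfap2a* (0.128 and 0.129), *Gsg2* and *Mbd1* for *Tead4* (0.0594 and 0.0596), and *Sox30* and *Sult1a1* for *Cdx2* (0.191 and 0.198). For *Eomes* they were *Zfp109* and *Tnfaip3* (0.110 and 0.112), for *Gata3* *BC107364* and *Spdya* (0.150 and 0.181), for *Elf3* *Adipor2* and *Thap11* (0.0352 and 0.0359), and for *Hand1* *Efemp1* and *Met* (0.124 and 0.130). No member was among the 2 nearest genes of another, an outcome likely for any small list when only 2 are taken from so many. It does not show that the members lack a common pattern. The closest pair within the list was *Tfap2c* and *Tead4* (0.257), then *Tfap2c* and *Eomes* (0.331). The measure is small wherever both genes change little, and the log2 fold changes of *Tfap2c* and *Tead4* differed in sign.

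Chromatin-associated RNA of E14 mESCs gave few counts for these genes. Libraries 1 and 2 held 3441643 and 3393923 counts in all, of which the 8 genes together took 32 and 38. *Eomes* had 8 and 6 counts, *Elf3* 6 and 7, *Tfap2c* 3 and 9, and *Tfap2a* 5 and 4. *Tead4* had 3 and 6, *Hand1* 2 and 4, *Gata3* 3 and 2, and *Cdx2* 2 and 0. The exact 95% Poisson interval of 9 counts is 4.12 to 17.1 and that of 2 counts 0.242 to 7.22, which overlap. In library 2 the interval of the 0 for *Cdx2* reaches 3.69 counts (its one-sided limit is 3), below that of the 9 for *Tfap2c*. This pair overlapped in library 1, and every other pair of members overlapped in both libraries. An order of the 8 genes was thus not resolved at this depth. Medians over the tested genes were 5 and 8 counts. Intervals cover counting error only.

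The authors assigned FACT peaks, each to its nearest gene, to 5 of the 8 genes, and none of these peaks covered a start. That is 7 peaks, 5 of SSRP1 at 4 genes and 2 of SUPT16 at 2 genes, beside 36.0% of all genes with a SSRP1 peak, 18.6% with a SUPT16 peak, and 41.9% with either. *Tfap2a*, *Gata3*, and *Hand1*, each of them called lower, had none. The start of no member had a peak within 1000 bp, beside 29.7% of genes with an annotated start. The lists give no heights and no replicate values.

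*Tfap2c* (chr2:172549593-172558622, plus strand, mm10) carried 3 peaks. A SUPT16 peak of 210 bp at chr2:172551681-172551890 covered 209 bases of a coding exon (172551407 to 172551889) and 1 base of the intron, with its centre 2.19 kb past the gene start used in the count table. The nearest annotated start, also of *Tfap2c* but a different one, lay 6003 bp from this peak. A SSRP1 peak of 784 bp lay 33.0 kb upstream between genes, at chr2:172515771-172516554. A further SSRP1 peak of 294 bp lay 24.8 kb past the gene, in an intron of the non-coding gene *Gm36038*. *Cdx2* (chr5:147300900-147307249, minus strand) had a SSRP1 peak of 294 bp at chr5:147299979-147300272, in intergenic sequence 628 bp past its end. *Eomes* (chr9:118478189-118486132, plus strand) had a SSRP1 peak of 882 bp 2.73 kb past its end, at chr9:118488861-118489742. This peak lay within the non-coding gene *Gm33460*, 37 bp from its start, with 414 exonic bases. *Tead4* (chr6:128227143-128300813, minus strand) had a SUPT16 peak of 560 bp 26.3 kb past its end. *Elf3* (chr1:135253574-135258472, minus strand) had a SSRP1 peak of 490 bp 23.1 kb past its end, and another of 294 bp 4363 bp upstream of its start that the authors assigned to *Rnpep*. The shortest lengths in the lists were 294 bp for SSRP1 and 210 bp for SUPT16, so the *Cdx2* peak and the exonic *Tfap2c* peak were of the shortest length listed.

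**Figure D5:**
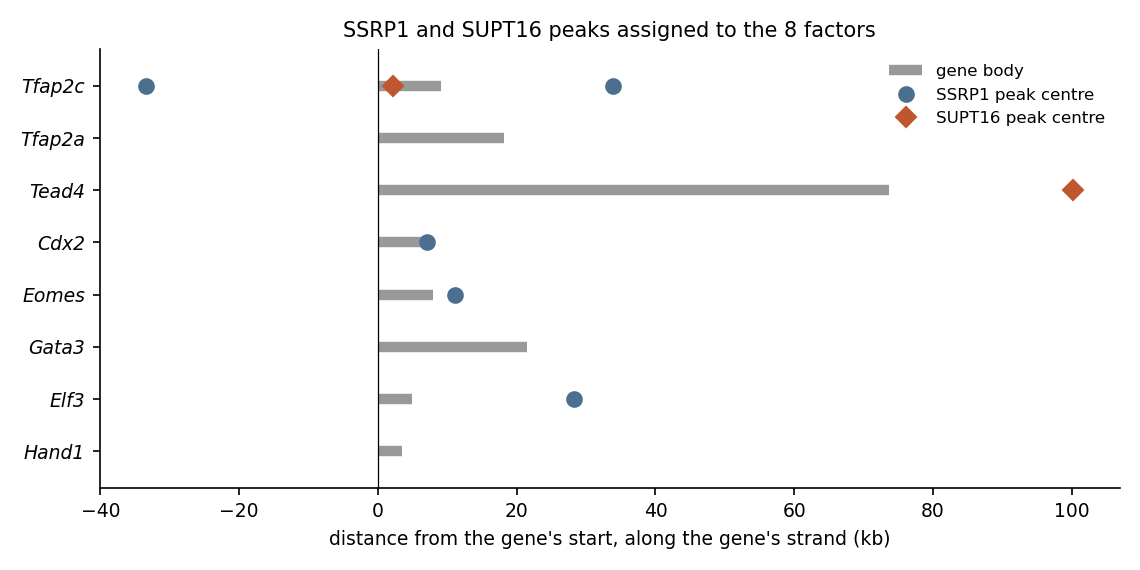
Centres of the 7 FACT peaks assigned to the 8 genes, as distance in kb from the gene's start along its strand, with the gene body as a grey bar. Starts are those of the count table. The SUPT16 peak inside *Tfap2c* lies 2.19 kb past that start, and *Tfap2a*, *Gata3*, and *Hand1* have no peak.

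The peak inside a member gene and the peak nearest to a member called lower are shown from GRCm38.p6, along the strand of the gene. Capitals mark a match to the letters AGATAA on the opposite strand, present once in the *Cdx2* peak. None of the 3 motifs was found in the *Tfap2c* peak.
Tfap2c SUPT16 peak: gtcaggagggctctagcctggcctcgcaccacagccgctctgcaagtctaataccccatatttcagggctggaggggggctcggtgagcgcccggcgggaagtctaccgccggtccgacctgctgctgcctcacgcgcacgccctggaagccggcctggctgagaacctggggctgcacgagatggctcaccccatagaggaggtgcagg
Cdx2 SSRP1 peak: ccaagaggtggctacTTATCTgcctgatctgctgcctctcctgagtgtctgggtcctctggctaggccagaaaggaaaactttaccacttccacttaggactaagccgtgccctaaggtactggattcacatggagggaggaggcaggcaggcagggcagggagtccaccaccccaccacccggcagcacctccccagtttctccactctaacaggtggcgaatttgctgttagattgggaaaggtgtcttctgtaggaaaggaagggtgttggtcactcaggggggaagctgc

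The remaining genes with RNA values lie at chr13:40715675-40733823 (*Tfap2a*), chr2:9857078-9878600 (*Gata3*), and chr11:57828713-57832147 (*Hand1*), all on the minus strand.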

How the data were processed

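RNA-seq was measured in 4 control and 4 Ssrp1-KD libraries, which the methods call biological replicates. The authors aligned to mm10 with STAR (2.5.1b in the submitters' processing notes, 2.4.1b in the methods), counted per gene, removed genes of low abundance, and deposited each library's signal in 2 forms, scaled by library size or by spike-ins. The log2 averages were computed by the authors with limma, and no value of those tables is reported, their fold changes, exon usage, and p-values included. The chromatin RNA table holds raw counts, as the authors deposited it (STAR 2.4.1b and featureCounts in the submitters' processing notes). The library kit keeps strand, but strand-specific counting is not stated, so antisense reads may be included. For peaks the authors used PePr, and ChIP-Enrich for the assignment to genes.

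Reads were recovered from the step between values (100% whole within 0.1). No library duplicated another. Values were tested with limma 3.58.1 (trend, R 4.3.3) on log2(value + 0.5) over 15384 genes, with the thresholds of the methods. Alternatives were pseudocounts of 0.1 and 2, count tests on the recovered reads (edgeR 4.0.16, DESeq2 1.42.0), scalings, a filter, call rules, leaving out libraries in turn, and a replicate block. On simulated data with 200 changed genes among 15384, limma recovered 99.0% with 0 false calls. The planted changes were well beyond the fold threshold, in genes above a read floor, with a single fixed dispersion. They do not cover changes near the threshold or genes as variable as *Gata3* and *Tfap2a* in controls. The exact interval is the Poisson one. The 8 genes, the lists of relatives, Hippo, effector, and lineage genes, and the rule for named genes (all members, up to 4 called genes per list, any paralogue or Hippo gene, and 2 genes per member by likeness) were chosen with earlier results of these data known. Symbols came from the count table (143 genes had none). MNase-seq, ATAC-seq, and NET-seq were not analysed here. Python 3.11.15 with scipy 1.17.1 was used.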

Additional observations from a re-analysis of the deposited data

Results flagged for a closer look

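The value of *Elf3* in control replicate 4, 34.9, stood apart from the other controls (29.0 to 29.4), with a gap of 0.926 of the range of the group, above Dixon's 95% critical value for 4 samples. It was the single one among 16 groups of 4 libraries tested for the 8 genes, and chance marks about 1 in 20. Without that library the log2 fold change of *Elf3* was 0.97, against 0.90 with it, and the gene was still not called.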

How the results depend on the processing

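All 8 members kept their direction under 20 of the 21 alternatives tried. The exception was the deposited spike-in scaling, where *Tfap2c* (0.72) and *Eomes* (0.40) changed sign and 8476 genes were called in place of 4405. Scaling to the plain total of reads was not among the 21. It would lower KD against control, so the direction of *Tead4* (log2 fold change 0.12) is not settled by these alternatives. Several alternatives could not change a direction, because they leave the log2 fold change as it is. These were limma without the trend, the filter on mean value, the replicate block, and the call rules without a fold threshold. TMM scaling nearly repeated the main values. Quantile normalisation left 1 member called in place of 4, and 3174 genes in place of 4405. With an adjusted p below 0.01 alone, 7 members and 11192 genes were called, and with 0.05 alone 7 members and 12237 genes, since neither rule has a fold threshold. Leaving out 1 library gave 3 to 4 members and 4254 to 4635 genes. Same-numbered libraries did not deviate together (correlations -0.0572 to 0.0441), so no pairing was assumed, and a replicate block gave 4 members and 4405 genes. Restricting peaks to at least 500 bp left 3 members with a peak in place of 5, and taking any peak within 5000 bp of the gene gave 4. Depth limits *Cdx2* and *Tfap2a* most, with 8 to 28 and 11 to 25 reads per KD library.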
